A study of Drosophila melanogaster with 8 samples.

Results

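CDK9 binding was described at 10 tubulin and actin genes of *Drosophila melanogaster*, out of 18277 annotated genes. They were chosen by name, and a gene was counted as having a peak if a CDK9 peak overlapped its body or the 1500 bp either side of any of its transcription starts in the dm6 assembly (Ensembl gene models). Of the 10 genes, 5 are used in most cells (*Act5C*, *Act42A*, *alphaTub84B*, *alphaTub84D* and *betaTub56D*) and 5 mainly in certain tissues or stages (*betaTub60D*, *betaTub85D*, *betaTub97EF*, *alphaTub67C* and *Act57B*). *betaTub60D* is also an example gene of the study. Across the 4 CDK9 libraries the 10 genes held 22 peaks by this rule, 15 of them at *Act5C*, and 6 genes had a peak in no library. Several of the *Act5C* peaks lay nearer to the start of a neighboring gene.

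CDK9 chromatin immunoprecipitation and sequencing (ChIP-seq) was performed in Kc167 cells, a female line of embryonic origin with hemocyte (blood cell) features, to ask whether the RNA interference protein Argonaute2 (AGO2) affects CDK9 on chromatin. The siAGO2 cells had an Ago2 knockdown, and the mock cells of control genotype were transfected in the same way without RNA. All cells were collected 3 days after transfection, and the antibody against CDK9 came from the Nakamura Lab. Each group had 2 CDK9 libraries and 2 inputs, and as no source says that libraries came from separate cultures, the spread between them may be technical.

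Actin polymerizes into the filaments that move and shape a cell, and dimers of alpha- and beta-tubulin polymerize into microtubules, the tracks of transport and of the mitotic spindle. Both protein families are encoded by several genes with nearly the same product and different sites of expression, and the genes used everywhere are among the most often chosen reference genes. CDK9 is the kinase of P-TEFb, the factor that releases promoter-proximal paused RNA polymerase II (Pol II) into productive elongation. A CDK9 peak says where this kinase was enriched on chromatin and is not a measure of RNA.

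Depth, judged from the peak lists, differed between the libraries. The siAGO2 lists held 1707 and 2295 peaks and the mock lists 3103 and 3804. The genome background, the mean coverage in reads that the peak caller assumes where nothing is bound, was solved from the values of the peaks. It was 0.814 and 0.864 in siAGO2 replicates 1 and 2 and 2.29 and 1.21 in mock replicates 1 and 2, so the mock libraries were the deeper ones by this measure. The total reads of the libraries were not counted. Whether depth has a part in the counts given here was not tested, and it cannot be told apart from the treatment in the length of the lists. The height of a peak is also given as its percentile, its rank by −log10 q within its own list on a scale of 0 to 100, where 100 is the top. Percentiles depend on list length as well, since a longer list adds weak peaks below the others, so they are descriptions of each list and not corrected for depth.

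The sequences around 4 starts are shown because they carry the contrast within the ubiquitous genes: *Act5C* has 2 starts of which the downstream one holds the highest peak of the 10 genes, while *alphaTub84B* and *alphaTub84D*, which encode nearly the same alpha-tubulin, had no peak at their starts. Each runs 5′ to 3′ on the strand of the gene, over 150 bases before the start and 30 from the start on, and comes from the NCBI copy of the same assembly. Capitals mark GAGAG (the core of the GAGA factor motif), TATAAA (bound by the TATA-binding protein) and TCAGT (the core of the initiator). Both strands were searched, so that a match on the other strand appears as its reverse complement, and matches that overlap run together.
*Act5C*, first start (chrX:5900711-5900890): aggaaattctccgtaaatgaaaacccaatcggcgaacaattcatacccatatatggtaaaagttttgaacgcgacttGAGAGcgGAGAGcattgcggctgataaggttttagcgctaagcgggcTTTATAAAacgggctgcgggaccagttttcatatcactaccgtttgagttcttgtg
*Act5C*, downstream start (chrX:5901832-5902011): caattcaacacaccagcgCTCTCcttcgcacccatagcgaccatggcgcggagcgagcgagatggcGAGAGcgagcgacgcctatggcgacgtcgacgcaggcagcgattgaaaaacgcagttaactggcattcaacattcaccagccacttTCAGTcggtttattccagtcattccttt
*alphaTub84B* (chr3R:7086449-7086628): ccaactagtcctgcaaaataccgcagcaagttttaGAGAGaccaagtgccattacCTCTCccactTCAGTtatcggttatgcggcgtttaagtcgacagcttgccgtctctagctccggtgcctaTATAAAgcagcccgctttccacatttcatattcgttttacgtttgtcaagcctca
*alphaTub84D* (chr3R:7530603-7530782): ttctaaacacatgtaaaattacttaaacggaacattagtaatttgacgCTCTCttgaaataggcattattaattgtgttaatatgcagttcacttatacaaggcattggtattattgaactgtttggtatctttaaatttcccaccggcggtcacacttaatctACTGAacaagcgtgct
The first *Act5C* start and *alphaTub84B* have TATAAA beginning at -24 and -25 from the start, and the other pair of sequences holds none. In the downstream *Act5C* start, TCAGT begins at base 3, counting from the start base itself. GAGAG lies at -84, among the CDK9 summits described next, and its reverse complement CTCTC at -132.

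The first question was which of the genes held CDK9 at all. *Act5C* was the only one of the 10 with a peak in all 4 libraries, against 7.53% of all genes (1377 genes). In siAGO2 replicates 1 and 2, 1 and 3 of the 10 genes had a peak, and in mock replicates 1 and 2, 3 and 4 had one. The share of all genes with a peak was 10.8% and 14.9% in the siAGO2 libraries and 18.6% and 23.0% in the mock libraries. The mean was 2 ± 1.41 genes in siAGO2 cells and 3.5 ± 0.707 genes in mock cells (SD, n = 2 each), a difference of -1.5 genes (two-sided exact permutation test, p = 0.667, in a design of 2 against 2 whose smallest possible p is 0.33). The groups overlapped, as siAGO2 replicate 2 and mock replicate 1 each had 3 genes with a peak. When each list was shortened to its top 1707 peaks, the difference was 0.

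Among the ubiquitous genes, 1 and 2 of 5 had a peak in siAGO2 replicates 1 and 2 and 2 and 3 of 5 in mock replicates 1 and 2. Among the tissue-restricted genes, it was 0 and 1 of 5 in the siAGO2 libraries and 1 of 5 in each mock library, and in each case the gene was *betaTub60D*. The ubiquitous genes thus exceeded the restricted ones by 1.25 ± 0.5 genes per library (SD over 4 libraries), which was not tested because genes are not replicates. This excess was 0.75 with only the peaks at or above the median q of each list and 0.5 with each list shortened to its top 1707 peaks. In at least 1 library a peak was found at 3 ubiquitous genes (*Act5C*, *alphaTub84B* and *betaTub56D*) and at 1 restricted gene, together 4 of 10, where 30.1% of all genes had one. The ubiquitous *alphaTub84D* and *Act42A* had none, and the restricted *betaTub60D* had a higher peak in the mock libraries than either ubiquitous tubulin with one.

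**Figure D1:**
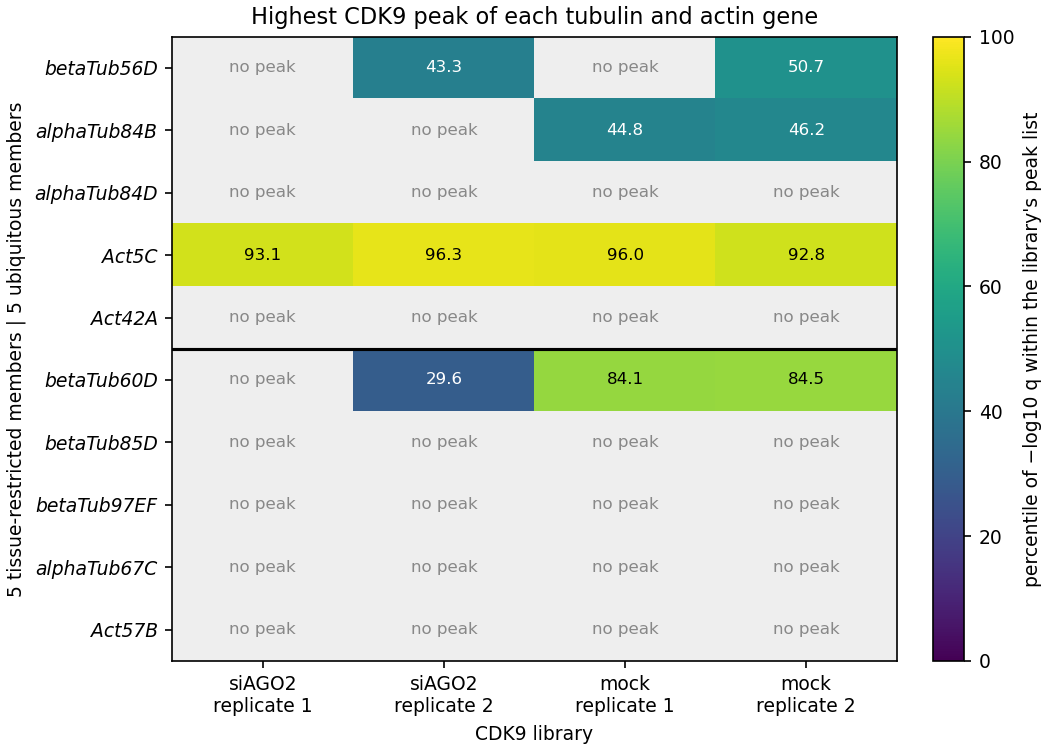
Percentile of the highest CDK9 peak of each gene within its library's list (color and number), for the 5 ubiquitous and 5 tissue-restricted genes (rows) in the siAGO2 and mock libraries (columns). *Act5C* lies between 92.8 and 96.3 in all 4 libraries, *betaTub60D* at 29.6 in siAGO2 replicate 2 and at 84.1 and 84.5 in the mock libraries, and 6 genes have no peak.

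*Act5C* (FBgn0000042; X, 5900861 to 5905399, plus strand) encodes one of the cytoplasmic actins and has 2 starts, at 5900861 and 5901982. By the rule used here it held 3 and 3 peaks in siAGO2 replicates 1 and 2 and 3 and 6 in mock replicates 1 and 2, including peaks nearer to a neighbor's start. Among genes with a peak, 7.29% and 6.95% had at least as many in the siAGO2 libraries and 7.86% and 1.19% in the mock libraries. The 15 peaks merged into 7 regions, of which 2 were called in all 4 libraries and 4 in a single library.

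The highest of these regions (X, 5901479 to 5902161) covered the downstream start, within the intron of the longer transcript. Its summits lay at -77 and -95 bp from that start in siAGO2 replicates 1 and 2 and at -106 and -82 bp in mock replicates 1 and 2, so that the 4 summits fell within 29 bp. Fold enrichment over the local background was 10.7 and 10.8 in the siAGO2 libraries and 7.59 and 7.48 in the mock libraries, and the median fold of all peaks was also higher in the siAGO2 lists (5.24 and 4.98) than in the mock lists (3.75 and 4.70). The percentile was 93.1 and 96.3 in siAGO2 cells and 96.0 and 92.8 in mock cells, so the groups overlapped in rank.

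The summit held 34 (95% exact Poisson interval 23.5 to 47.5) and 47 (34.5 to 62.5) reads in siAGO2 replicates 1 and 2 and 58 (44.0 to 75.0) and 50 (37.1 to 65.9) reads in mock replicates 1 and 2. The intervals cover counting error only. Divided by the genome background of each library, this came to 41.8 and 54.4 in the siAGO2 libraries and 25.3 and 41.3 in the mock libraries. The lowest siAGO2 value thus lay just above the highest mock value. The mean was 48.1 ± 8.94 in siAGO2 cells and 33.3 ± 11.3 in mock cells (SD, n = 2 each), a ratio of 1.44 (two-sided exact permutation test, p = 0.33, the smallest possible). The separation depended on the divisor. Over the median reads of the regions called in all 4 libraries, the groups overlapped, with a ratio of 1.19 (two-sided exact permutation test, p = 0.667).

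A second region of *Act5C* (X, 5899209 to 5899612) lay at the upstream end, with summits at -1512 and -1431 bp from the first start in siAGO2 replicates 1 and 2 and at -1479 and -1483 bp in mock replicates 1 and 2. By distance it belongs to another gene, as the summits lay between 559 and 640 bp downstream of the start of *lncRNA:CR45668*, a noncoding gene that runs away from *Act5C* on the other strand. Fold enrichment was 5.44 and 7.28 in siAGO2 cells and 4.58 and 4.88 in mock cells, at percentiles of 51.8 and 81.5 in siAGO2 cells and 81.6 and 72.7 in mock cells. Summit reads over the genome background were 17.2 and 23.2 in the siAGO2 libraries and 14.4 and 22.3 in the mock libraries, which overlapped. Their means were 20.2 ± 4.21 and 18.3 ± 5.58 (SD, n = 2 each), a ratio of siAGO2 to mock of 1.10 (two-sided exact permutation test, p = 0.667). The direction of this ratio rested on single libraries. It was 0.938 without siAGO2 replicate 2 and 0.905 without mock replicate 1. The choice of divisor mattered too. Over the local background of each peak the values were 7.97 and 10.6 in the siAGO2 libraries and 5.13 and 5.70 in the mock libraries, which did not overlap, a ratio of 1.72 (two-sided exact permutation test, p = 0.33).

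Another region (X, 5899883 to 5900284) lay at the start of *lncRNA:CR45668* itself. It was called in siAGO2 replicate 1 (fold 4.65, 11 reads) and in mock replicates 1 and 2 (fold 3.49 and 3.24, 19 and 12 reads), and not in siAGO2 replicate 2. The first *Act5C* start, the one with a TATAAA sequence, carried a peak in mock replicate 2 only, with the summit 3 bp downstream and a fold of 3.74 (14 reads, percentile 23.9). The other single-library regions lay further along the gene. In siAGO2 replicate 2 a peak lay in the coding exon, 913 bp past the downstream start (fold 3.84, percentile 18.1). In mock replicate 2, 1 peak lay in the same exon at 1618 bp (fold 3.52, percentile 24.6) and 1 in the 3′ UTR at 2547 bp (fold 3.77, percentile 21.4). All peaks within the transcribed part past the downstream start were thus in the lower part of their lists.

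**Figure D2:**
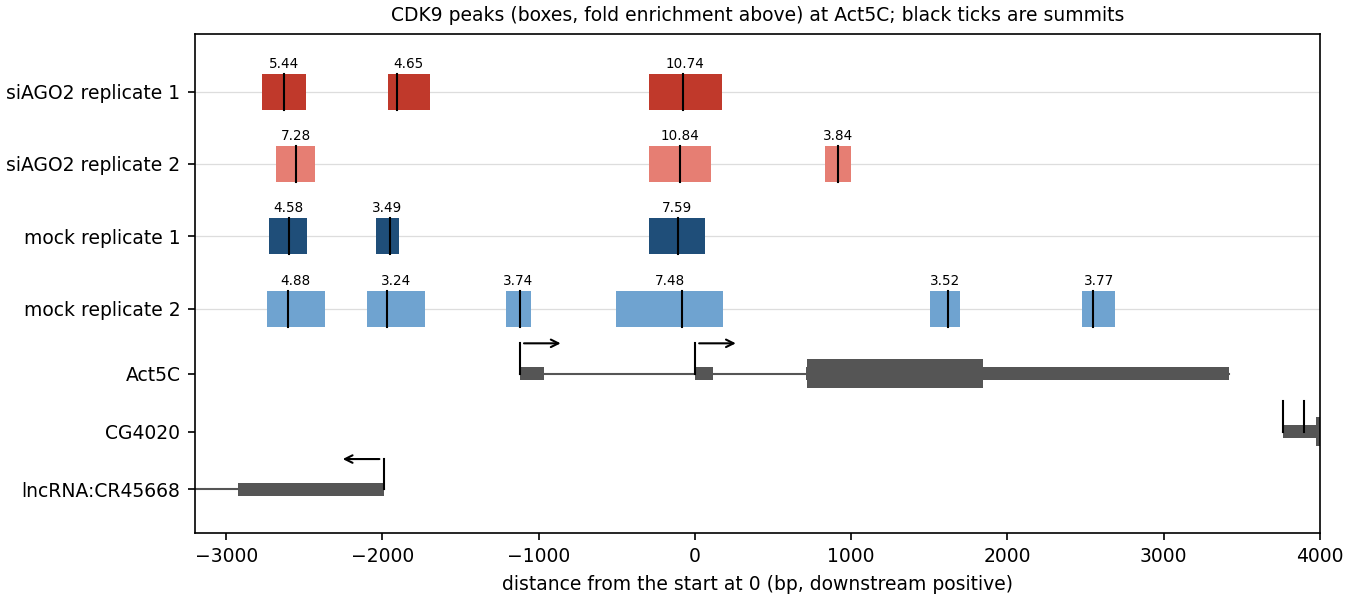
CDK9 peaks at *Act5C* by distance (bp) from its downstream start, with siAGO2 libraries above mock libraries and gene models below (thick, coding; thin, UTR or noncoding exon; line, intron; arrows, starts). Boxes span the deposited peaks, ticks mark the summits and numbers give the fold enrichment, which is 10.7 and 10.8 in siAGO2 and 7.59 and 7.48 in mock libraries at the downstream start.

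*betaTub60D* (FBgn0288686; 2R, 24305881 to 24313099, plus strand) encodes a beta-tubulin of developing muscle and other mesodermal tissue, and is known to respond to the hormone ecdysone in Kc cells. It had no peak in siAGO2 replicate 1 and 1 peak, across the start, in each of the other libraries, a pattern shared by 2.55% of all genes (466 genes). The summit lay at 16 bp from the start in siAGO2 replicate 2, in the 5′ UTR, and upstream at -78 and -28 bp in mock replicates 1 and 2. Fold enrichment was 3.92 in siAGO2 replicate 2, against 5.14 and 7.37 in the mock libraries. The percentile was 29.6 in siAGO2 replicate 2, against 84.1 and 84.5 in the mock libraries, whose lists are longer.

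The order of the reads was less clear than that of the percentiles. The summit held 14 reads (95% exact Poisson interval 7.65 to 23.5) in siAGO2 replicate 2 and 32 (21.9 to 45.2) and 27 (17.8 to 39.3) reads in mock replicates 1 and 2. Over the genome background this was 16.2 in siAGO2 replicate 2 and 14.0 and 22.3 in the mock libraries, so that siAGO2 replicate 2 lay between the mock libraries. With no peak in siAGO2 replicate 1, this gene entered neither the permutation tests of summit reads nor the main comparison of ranks below.

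The genes whose percentiles over the 4 libraries lay closest to those of *betaTub60D* were *CG4291* and *kraken*, neighbors on 2L that share their peak, followed by *CtsF* on 3R. *CG4291* and *kraken* had no peak in siAGO2 replicate 1, a percentile of 31.4 in siAGO2 replicate 2, and 79.5 and 84.2 in mock replicates 1 and 2 (Euclidean distance 4.96 percentile points over 4 libraries). *CtsF* likewise had no peak in siAGO2 replicate 1, 36.4 in siAGO2 replicate 2, and 80.0 and 81.9 in the mock libraries (distance 8.37).

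*alphaTub84B* (FBgn0003884; 3R, 7086599 to 7088839, plus strand), the main alpha-tubulin gene, had a peak in each mock library and in no siAGO2 library. This pattern was found at 2.74% of all genes (500 genes). The mock peaks were not one site. In mock replicate 1 the summit lay 1777 bp past the start (fold 3.43, 21 reads, percentile 44.8), and in mock replicate 2 it lay 1292 bp past it (fold 4.26, 17 reads, percentile 46.2). Both were in the coding exon, they did not overlap each other, and no peak lay at the start shown above.

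*betaTub56D* (FBgn0284243; 2R, 19447319 to 19451600, minus strand), the main beta-tubulin gene, had a peak in siAGO2 replicate 2 and in mock replicate 2, again at different sites. In siAGO2 replicate 2 the summit lay at -892 bp from the *betaTub56D* start and at -12 bp from that of the divergent neighbor *CG7744* (fold 5.10, 11 reads, percentile 43.3). In mock replicate 2 it lay 187 bp downstream of the *betaTub56D* start, in the intron (fold 4.48, 17 reads, percentile 50.7). When only peaks nearest to a start of the gene itself were counted, *betaTub56D* had a peak in mock replicate 2 alone.

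**Figure D3:**
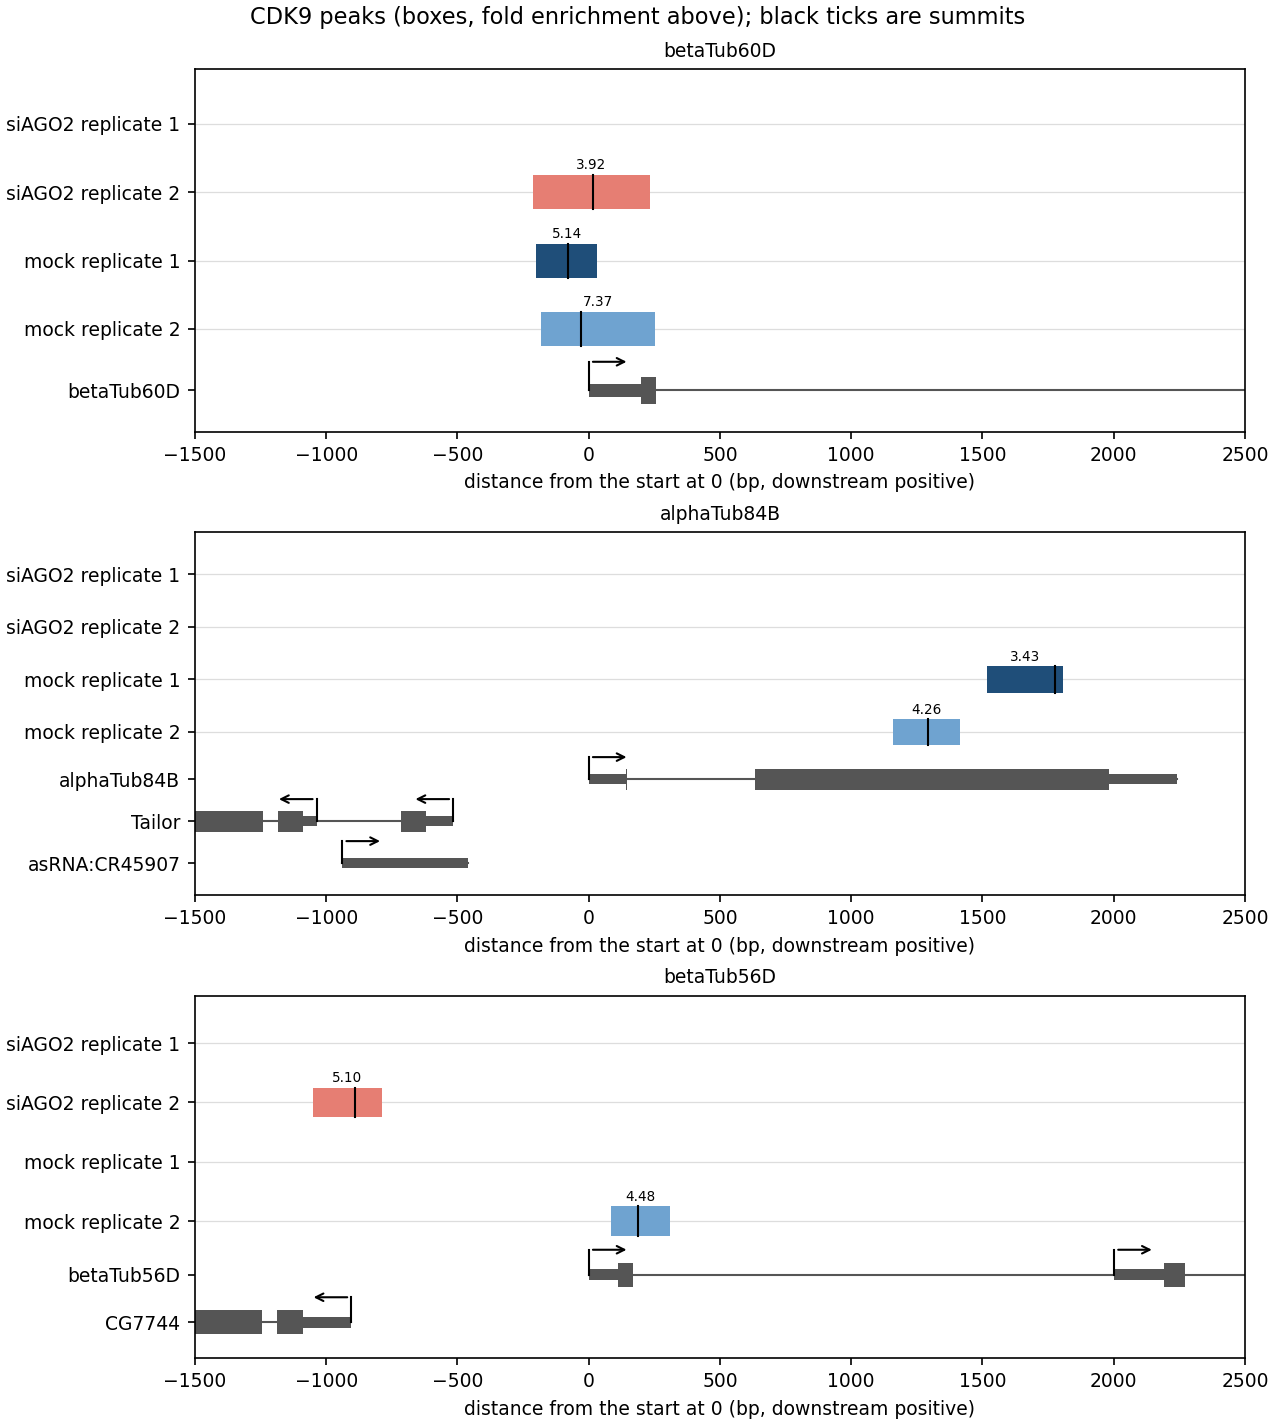
CDK9 peaks at *betaTub60D*, *alphaTub84B* and *betaTub56D* by distance (bp) from the start at 0, drawn as for *Act5C*, with siAGO2 libraries above mock libraries. The *betaTub60D* peaks overlap each other at the start (fold 3.92 in siAGO2 replicate 2, 5.14 and 7.37 in mock), whereas those of the other genes lie at separate sites.

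**Figure D4:**
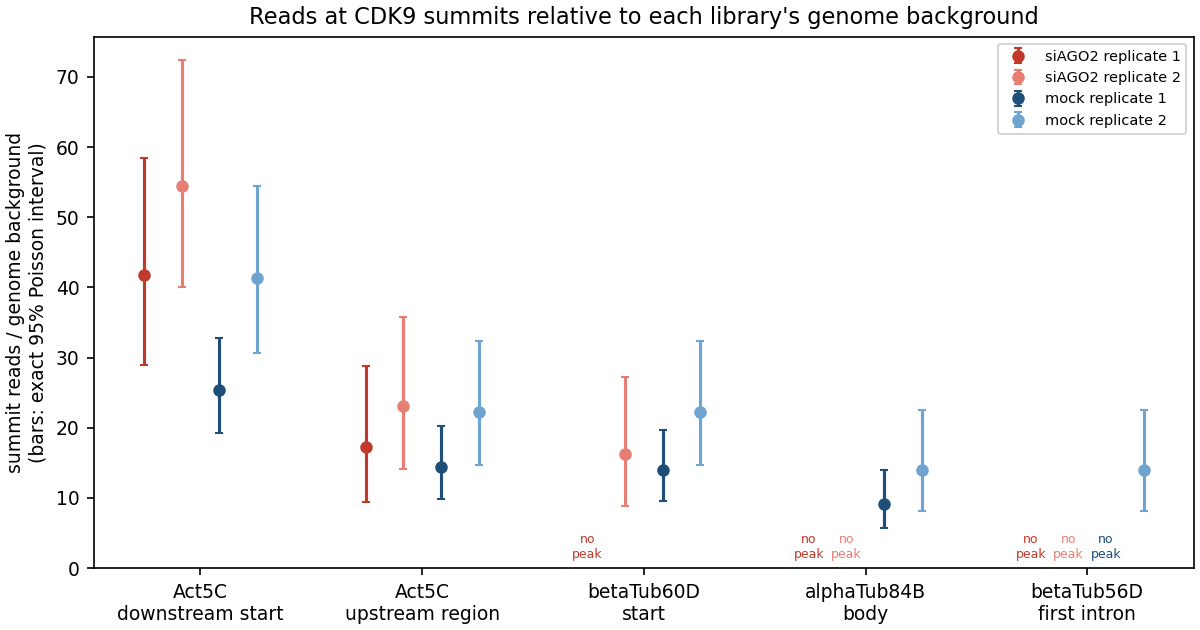
Reads at the summit divided by the genome background of the library (vertical axis) at 5 sites of 4 genes, with exact 95% Poisson intervals of the reads as bars and siAGO2 libraries left of mock libraries. At the downstream start of *Act5C* the siAGO2 libraries lie at 41.8 and 54.4 and the mock libraries at 25.3 and 41.3, and at *betaTub60D* siAGO2 replicate 2 (16.2) lies between the mock libraries (14.0 and 22.3).

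The other 6 genes had no peak in any list. *alphaTub84D* (FBgn0003885; 3R), a second ubiquitous alpha-tubulin gene, had its nearest summit between 18272 and 55967 bp from the start over the 4 lists. For *Act42A* (FBgn0000043; 2R), the other cytoplasmic actin gene, this distance was between 2279 and 104983 bp. It was between 5825 and 9184 bp for *betaTub85D* (FBgn0003889; 3R), the beta-tubulin of the testis, and between 11455 and 11520 bp for *alphaTub67C* (FBgn0087040; 3L), the maternal alpha-tubulin of the egg. *betaTub97EF* (FBgn0003890; 3R), a beta-tubulin of restricted expression, had none within 34654 bp, and *Act57B* (FBgn0000044; 2R), an actin of larval muscle, none within 7728 bp. A missing peak says that no site passed the threshold of q = 0.05 at the depth of these libraries, not that CDK9 was absent.

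These genes resemble each other in sequence, and reads that map to several places were removed by the authors. Of exact 50-base windows, the read length of the study, 93.9% were unique in the genome within the coding sequence of both *alphaTub84B* and *alphaTub84D*, 95.1% in that of *Act5C*, and between 98.4% and 100% in that of the other 7 genes. Within 250 bp of every start and inside every peak of the 10 genes, 100% of windows were unique. Windows that differ from another place by only a few bases were not tested, so low values in the coding exons of the near-identical alpha-tubulins are uncertain.

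The starts of the 10 genes differed in sequence as well as in CDK9. In windows from 250 bases before a start to 49 after it, GAGAG occurred at 7 of the 12 starts of these genes, against 32.4% of 23697 starts in the genome. All 7 belong to ubiquitous genes, and all 5 starts of the restricted genes had 0 copies. The downstream *Act5C* start had 7 copies on both strands together, a number reached by 1.69% of starts. Some of these copies lie outside the shorter sequence shown above. The second highest number, 4, was at the inner start of *betaTub56D*, which had no peak. TATAAA was present at 6 of 12 starts (41.4% of all starts), TCAGT at 11 of 12 (51.2%), and TATCGATA, the core of the DREF motif, at 1 of 12 (6.77%), that of *alphaTub67C*. A match is a run of letters and not a measured site.

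To ask whether AGO2 knockdown moves CDK9 relative to other sites, ranks of −log10 q within each library were compared over the 1022 regions called in all 4 libraries, of which 2 are at *Act5C*. Of the 1022 regions, 0 (0%) differed between siAGO2 and mock cells (limma, smallest adjusted p = 0.671). Before adjustment, 66 regions had a p under 0.05. At the downstream start of *Act5C* the normal score of the rank differed by 0.39 ± 0.39 (SE; limma adjusted p = 0.910), and at its upstream region by 0.28 ± 0.46 (SE; limma adjusted p = 0.942). At the downstream start the scores were 1.20 and 1.39 in siAGO2 replicates 1 and 2 and 1.18 and 0.62 in mock replicates 1 and 2, and at the upstream region the groups overlapped. The other regions of the 10 genes were not called in every library and have no value there. In an alternative fit over regions called in at least 3 libraries, the score at *betaTub60D* differed by -1.38 (siAGO2 minus mock). Its only siAGO2 value came from replicate 2. At the start of *lncRNA:CR45668* the score differed by 0.74, and there the only siAGO2 value came from replicate 1.

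Genes that work with actin and tubulin were then counted by the same rule. Of 7 other tubulin and actin genes (the gamma-tubulins, *alphaTub85E*, *betaTub65B* and the muscle actins *Act79B*, *Act87E* and *Act88F*), 0 had a peak in either siAGO2 library and 1 and 0 in mock replicates 1 and 2. The exception was *alphaTub85E*, with a peak 785 bp past its start at percentile 38.3 of mock replicate 1. The subunits of the chaperonin CCT, which folds newly made actin and tubulin, had a peak at 3 and 3 of 8 genes in siAGO2 replicates 1 and 2 and at 3 and 5 of 8 in mock replicates 1 and 2. *CCT1* and *CCT6* had one in all 4 libraries. For *CCT1* the percentile was 21.3 and 54.2 in siAGO2 cells and 65.9 and 78.3 in mock cells, and for *CCT6* 64.9 and 11.2 in siAGO2 cells and 73.3 and 44.7 in mock cells. *CCT7* had 25.7 in siAGO2 replicate 2 and 38.7 in mock replicate 2, and no peak in the other libraries.

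Of 31 actin regulators, 13 and 11 had a peak in siAGO2 replicates 1 and 2 and 10 and 15 in mock replicates 1 and 2, and 8 had one in all 4 libraries. The highest was *Moe* (moesin, which links actin filaments to the membrane), at percentiles of 99.9 and 99.6 in siAGO2 cells and 99.8 and 99.8 in mock cells. It was followed by *chic* (profilin, which binds actin monomers), at 88.9 and 98.8 in siAGO2 cells and 97.4 and 99.0 in mock cells, and by *tmod* (tropomodulin, which caps filaments), at 54.4 and 92.2 in siAGO2 cells and 89.1 and 81.2 in mock cells. The summits of the highest peaks lay at -47 bp from the start of *Moe*, 175 bp from that of *chic* and -146 bp from that of *tmod*.

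Of 27 microtubule regulators and motors, 11 and 15 had a peak in the siAGO2 libraries and 18 and 18 in the mock libraries, and 9 had one in all 4. The highest was *shot* (a spectraplakin that joins microtubules to actin), at percentiles of 92.5 and 97.7 in siAGO2 cells and 97.0 and 97.6 in mock cells. *Jupiter*, a microtubule-associated protein, followed with 86.4 and 33.2 in siAGO2 cells and 87.3 and 90.4 in mock cells, and *Patronin*, which protects microtubule minus ends, with 54.8 and 66.1 in siAGO2 cells and 79.4 and 77.0 in mock cells. A peak in each mock library but in no siAGO2 library was found at 4 genes of this list, *sw*, *Klp61F*, *chb* and *CLIP-190*, which were named after their values were seen, beside 2.74% of all genes. In mock replicates 1 and 2 the percentiles were 59.3 and 22.4 for *sw* and 11.5 and 49.4 for *Klp61F*. They were 83.7 and 6.15 for *chb* and 1.03 and 47.8 for *CLIP-190*. The mock lists are longer than the siAGO2 lists, and whether this has a part in the pattern was not tested. A peak in each siAGO2 library but in no mock library was rare everywhere, with 20 of all genes (0.109%) and no gene of these lists. Set beside the 10.8% to 23.0% of all genes with a peak, both lists of regulators had larger shares in every library, between 32.3% and 66.7%, with gene length not taken into account. The lists were written with earlier results of these data known, and all genes include noncoding ones. The larger shares are thus a description of these lists and were not tested.

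**Figure D5:**
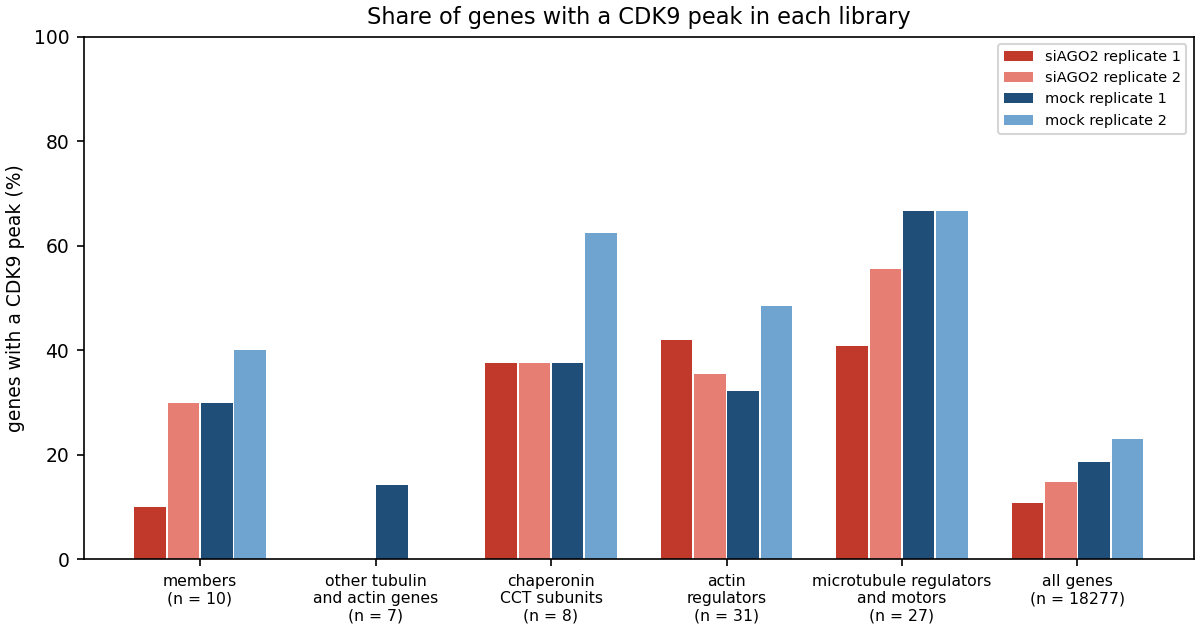
Share of genes with a CDK9 peak (%) in each siAGO2 and mock library for the 10 tubulin and actin genes, 4 lists of related genes and all 18277 genes. The microtubule regulators lie between 40.7% and 66.7%, the other tubulin and actin genes at 0% in 3 libraries, and all genes between 10.8% and 23.0%.

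The labelled cell type was set against CDK9 peaks at marker genes. Of 8 hemocyte markers, 1 and 3 had a peak in siAGO2 replicates 1 and 2 and 5 and 2 in mock replicates 1 and 2. This was 12.5% and 37.5% in the siAGO2 libraries and 62.5% and 25% in the mock libraries. The share of all genes was 10.8% and 14.9% in the siAGO2 libraries and 18.6% and 23.0% in the mock libraries. The marker shares lay near it in some libraries, and the differences were not tested. *Col4a1* and *vkg* had identical percentiles (34.1 in siAGO2 replicate 2 and 16.9 in mock replicate 1), so a shared peak may be counted for both. *srp*, the GATA factor of hemocytes, had one in all 4 libraries, at percentiles of 91.1 and 96.5 in siAGO2 cells and 98.8 and 96.6 in mock cells, while *Hml*, *NimC1* and *eater* had none. Of 8 muscle markers, 1 and 1 had a peak in the siAGO2 libraries and 3 and 1 in the mock libraries, with *Mef2* in all 4. The share was 37.5% in mock replicate 1 and 12.5% in each other library. *Mef2* ranked about as high as *srp*, at percentiles of 96.8 and 96.1 in siAGO2 cells and 95.8 and 98.1 in mock cells. Its highest peak lay 3682 bp past its start. Of 6 germline markers, 1 (16.7%) had a peak in each library, *nanos*, whose highest peak lay at -55 bp from the start of its neighbor *CG11779*. The percentiles of *nanos* were also high, at 91.8 and 97.1 in siAGO2 cells and 96.4 and 96.5 in mock cells. These counts stand beside the peak at *betaTub60D*, a gene also used in muscle, and any part of other cell types in it was not tested.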

How the data were processed

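Per the study's methods, the authors sequenced 50 bp single-end reads, trimmed them with cutadapt, aligned them to dm6 with Bowtie2, kept reads with a mapping quality of at least 20, removed duplicates with Picard and called peaks for each replicate with MACS2 against its input. The submitters' processing notes name cutadapt 1.10, Picard 2.11.0 and MACS2 2.1.1.20160309. The study's methods class the CDK9 peaks as punctate and also describe a pooled call over both replicates, whose peaks were not used here. Other MACS2 settings for CDK9 are not given in the sources used here. The 4 deposited lists give for each peak a fold enrichment (a ratio of summit reads to local background), −log10 of the p-value and of the q-value, an integer score and the offset of the summit. No peak had a −log10 q under 1.31. The score was not used. The 4 inputs had no list of their own.

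Whole summit reads and the background of each peak were solved from the deposited fold (pseudocount 1) and −log10 p under a Poisson model, within 0.0005, for 100% of peaks. The lowest background of a list served as its depth. Depth limits precision: the deepest library had 2.82 times the background of the shallowest. Peaks were joined to genes by 1 bp or more. Peaks overlapping between lists were merged into 5531 regions. Ranks were compared with limma 3.58.1 in R 4.3.3 (normal scores, lmFit, eBayes, Benjamini-Hochberg over all regions, threshold 0.05), single values with exact permutation tests in Python 3.11.15 with scipy 1.17.1. The reads themselves were not used, so the differential count analysis of the study was not repeated. Scripts were tested on simulated data. Alternatives varied the window, the gene body, the q threshold, the list length, the background and the libraries.

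All 10 genes were named. Other genes were named if theirs was the start nearest to a gene's highest peak, if they were the 3 closest to *betaTub60D* in percentiles, or if they were the 3 highest of a list by mean percentile. The genes, classes and lists were chosen with earlier results of these data known. *betaTub97EF* was classed as restricted from background knowledge.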

Additional observations from a re-analysis of the deposited data

How the results depend on the processing

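The difference in the number of genes with a peak was -1.5 (siAGO2 minus mock) and lay between -2 and -1 under the other windows, gene body, summit, nearest-start and median q rules, but it was 0 with each list shortened to its top 1707 peaks (exact permutation test, p = 1), where list length no longer differs by construction. Without each library in turn it lay between -2.5 and -0.5. Ubiquitous minus restricted genes was 1.25 per library, 0.75 with peaks at or above the median q of their list, where fewer peaks enter, and 0.5 with the shortened lists. It lay between 1 and 1.33 without each library, and was 1.25 with *betaTub97EF* counted as ubiquitous.

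At the upstream *Act5C* region the ratio of summit reads was 1.10 but 0.897 with the median reads of shared regions as the divisor, 1.72 over local background, and between 0.905 and 1.40 without each library. Its rank difference was 0.28 but -0.10 when siAGO2 replicate 2 was left out and -0.09 when mock replicate 2 was, and reached 0.65 without siAGO2 replicate 1. The cause was not tested. At the downstream start the ratio kept its direction, between 1.17 and 1.90 without each library, 1.19 with median reads and 1.68 over local background. With median reads the siAGO2 and mock values overlapped (two-sided exact permutation test, p = 0.667). The rank difference of 0.39 also kept its direction, but it moved to 0.12 without mock replicate 2 and to 0.67 without mock replicate 1.

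Libraries of the same replicate number did not deviate together in rank (r = 0.00101 over the 1022 regions called in all 4 libraries). This check cannot exclude shared processing, as ranks hide a shift of a whole library and regions missing from a list were left out. With the replicate numbers as a block, the difference in genes stayed at -1.5 (exact sign-flip permutation, p = 0.5), and limma called 2 regions against 0 without the block. Other limma fits called 0, with 43 to 96 regions at an unadjusted p under 0.05. Summit reads of 11 to 58 limit single values, and an exact test of 2 libraries against 2 cannot pass 0.05.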
